A study of Caenorhabditis elegans with 6 samples.

Results

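The genes described here encode the neuropeptide-like proteins of Caenorhabditis elegans, secreted peptides that carry the symbol nlp- followed by a number. Membership rested on that symbol alone, but earlier results of these data were known when the genes were chosen. Of the 46726 gene identifiers counted in the series, 78 carried the symbol. Of the 78, 71 were named in release 115 of the Ensembl annotation of the WBcel235 genome, and 7 were named by RefSeq at identical coordinates of the same assembly. Genes that now carry another symbol were not counted. The 78 were split into the 6 genes of the nlp-29 cluster, 5 relatives of these cluster genes elsewhere in the genome, and 67 other members, most of them known or presumed neuronal peptide genes.

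The study asked what the RNA-binding splicing factor MEC-8 does in the touch neurons, the mechanosensory neurons that sense gentle touch to the body. Polyadenylated RNA of sorted cells was sequenced in 3 libraries of mec-8(e398) mutants and 3 libraries of wild-type animals, all grown to the L4 larval stage. According to the study's methods, both genotypes carried a mec-4p::GFP transgene, whose promoter marks the touch neurons, and GFP-positive cells were sorted after dissociation of many animals together. The wild-type libraries are labelled N2, a name that does not mention the transgene. The study describes its replicates as biological, and the p-values given here measure the spread between these 3 libraries of each genotype.

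Most neuropeptides are cut from a larger precursor by proteases, trimmed and amidated in dense core vesicles, and released from these vesicles to act on G protein-coupled receptors of other cells. Neurons, gland-like cells, intestine and epidermis all express genes of the nlp class, so the class joins signalling peptides with peptides of defence. The nlp-29 group belongs to the second kind: nlp-29 is the standard reporter of the epidermal response to fungal infection and to wounding, and several of its relatives are induced with it.

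The unit of level is CPM, in which every library is scaled to 1 common total of gene counts. Between 15334872 and 33094142 counts fell on genes in a library, so that a gene with 3 counts, the floor used here, had 0.0907 to 0.196 CPM. All 10 touch neuron markers checked had counts in all 6 libraries, with a summed level of 1026 to 11523 CPM in mec-8 libraries and 1620 to 14706 CPM in wild-type libraries. Markers of other tissues were also present at levels that differed between libraries of the same genotype, and their values are given beside the members they move with. Wild-type replicate 1 stood apart in its mapping, with 70024247 alignments to several places against 1922629 to 11988379 in the other 5 libraries, and with 11.1% of its unique reads on more than 1 gene against 2.62% to 3.04%. These are bulk samples, so fewer cells of a type and less RNA per cell cannot be told apart.

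The neuropeptide-like genes took a small share of each library. Together they made up 0.0750% ± 0.0319 of the gene counts in mec-8 libraries and 0.0976% ± 0.0504 in wild-type libraries (SD, n = 3 each). The summed level was 726, 1079 and 444 CPM in mec-8 replicates 1, 2 and 3, against 1497, 938 and 492 CPM in wild-type replicates 1, 2 and 3. The genotypes overlapped, and the largest difference lay between 2 single libraries, 0.0444% in mec-8 replicate 3 (Wilson 95% interval 0.0435% to 0.0452%) and 0.150% in wild-type replicate 1 (0.148% to 0.151%). These intervals cover counting error only. The 67 other members gave 600, 483 and 338 CPM in mec-8 libraries, against 1322, 463 and 443 CPM in wild-type libraries. Apart from wild-type replicate 1, the summed level of the other members was thus between 338 and 600 CPM in every library.

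**Figure D1:**
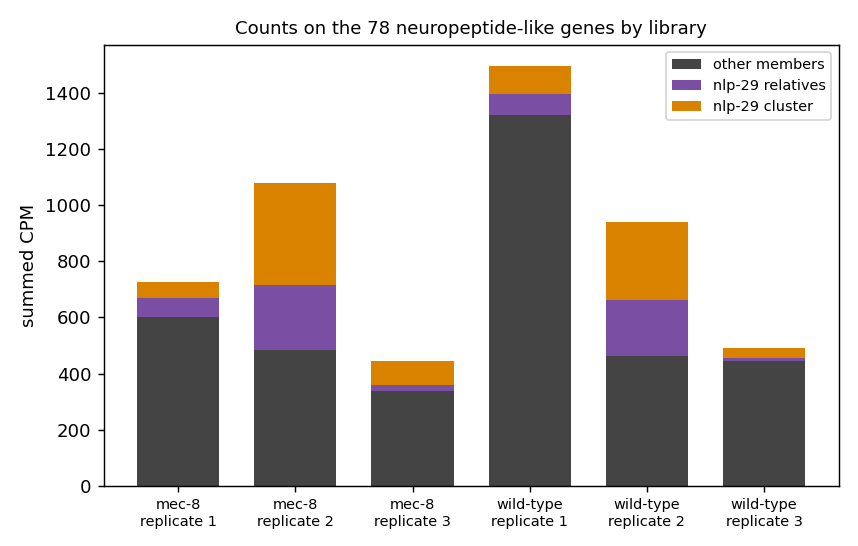
Summed CPM of the 78 neuropeptide-like genes in each of the 6 libraries, mec-8 libraries left of wild-type libraries, with the bar split into the nlp-29 cluster (6 genes), its relatives (5 genes) and the other members (67 genes). Wild-type replicate 1 is tallest at 1497 CPM, and the cluster and its relatives are largest in both replicate 2 libraries.

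Most members were detected at least weakly. Of the 78, 41 had a count in all 6 libraries and 1, nlp-60, had none in any. With detection set at 10 counts or more in at least 2 of the 3 libraries of a genotype, 49 members were detected in mec-8 libraries and 54 in wild-type libraries, of which 43 were shared, 6 were detected in mec-8 only and 11 in wild type only. A further 18 were detected in neither. The same split was not counted over all genes, so 6 against 11 has no background share beside it and is not read as a result about the members. These are descriptions of libraries that differ in depth and in the number of genes with a count. Mec-8 replicate 3 had the most members at 0, 35 of 78, against 4 to 13 in the other libraries. It also had the fewest genes with a count, 13613, against 13747 to 19659 in the others. Its 22705762 gene counts were more than the 15334872 of wild-type replicate 3, which had 10 members at 0.

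Per length, a few members stood high among all protein-coding genes and most stood low. On the scale of CPM per kilobase of exon, averaged over the 6 libraries, 9 members lay above the 90th percentile of the 18396 coding genes with a count, 49 lay under the 50th percentile, and the median member lay at percentile 38.0. The order of mean levels ran from nlp-27 (382 CPM per kilobase) and nlp-33 (233), both of the epidermal group, through nlp-50 (188), nlp-17 (148), nlp-99 (118), nlp-20 (96.8), nlp-21 (80.0) and nlp-40 (74.2) to nlp-49 (71.6). This order is loose: in all 77 pairs of neighbours in it, the ranges over the 6 libraries overlapped.

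The leading member differed from library to library. In mec-8 replicate 1 it was nlp-20, with 33.7% of all member counts (Wilson 95% interval 33.1% to 34.3%). In mec-8 replicate 2 it was nlp-27 with 28.2%, and in mec-8 replicate 3 it was nlp-40 with 36.4%. Among the wild-type libraries, nlp-50 led in replicate 1 with 23.3%, nlp-27 in replicate 2 with 24.02% and nlp-21 in replicate 3 with 23.2%. The 5 leading members of a library held 59.4% to 70.8% of its member counts.

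Comparison of mec-8 with wild type across all genes, by edgeR's quasi-likelihood test, tested 14614 genes after a filter on low counts, and 55 of the 78 members passed that filter. With Benjamini-Hochberg adjustment, 0 of the 55 members had an adjusted p under 0.05, beside 0% of all genes tested. At an unadjusted p under 0.05 the count was again 0 of 55 members, beside 3.22% of all genes (2.87% with mec-8 higher and 0.349% with mec-8 lower). DESeq2, which was run without that filter, called 0 members after adjustment as well. It put 5 of the 71 members with a p-value under an unadjusted p of 0.05, beside 4.92% of all 23115 genes with one. The fitted log2 fold change of mec-8 over wild type was above 0 in 21 members and under 0 in 34, which is 61.8% under 0, beside 49.5% under 0 and 50.5% above 0 among all genes tested. Its median over the members was -0.19 and its range -4.76 to 4.15, against a median of 0.01 over all genes. The standard errors of these fold changes ran between 0.676 and 2.53 with a median of 1.35, and edgeR's common dispersion had a square root of 1.20, a measure of how far replicates vary beyond counting noise. The 23 members that did not pass the filter had at most 261 counts in any library, a count reached by nlp-67.

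**Figure D2:**
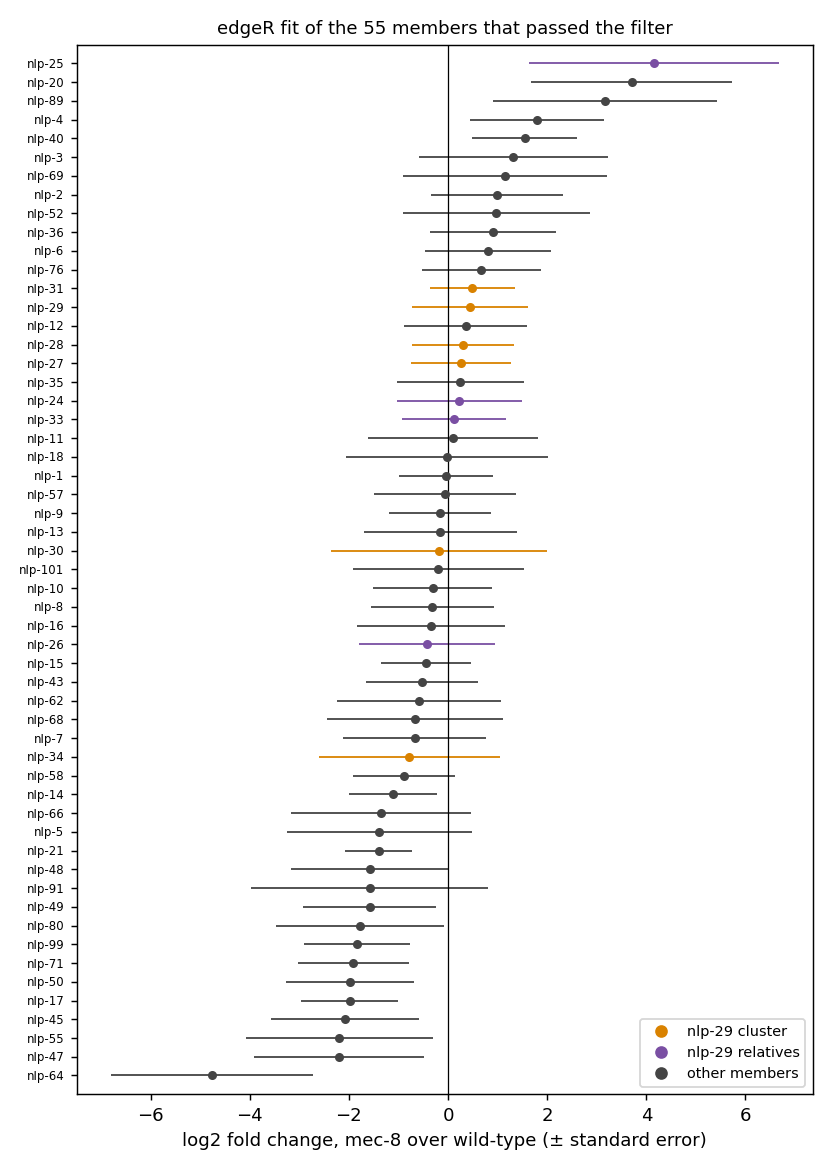
Fitted log2 fold change of mec-8 over wild type (edgeR) with its standard error for the 55 members tested, coloured by class, with the 0 line drawn. No member had an adjusted p under 0.05, and the largest values either way, -4.76 for nlp-64 and 4.15 for nlp-25, carry standard errors of 2.04 and 2.53.

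The 6 genes of the nlp-29 cluster lie side by side on chromosome V of WBcel235, from position 3978825 to 3989770, a stretch of 10946 bases. In the order of the chromosome they are nlp-34 on the minus strand, then nlp-31, nlp-30, nlp-29, nlp-28 and nlp-27 on the plus strand. They encode short glycine-rich and aromatic peptides of the epidermis, for which an antimicrobial role has been described. The 5 relatives are nlp-33, nlp-24, nlp-25 and nlp-26, elsewhere on chromosome V, and nlp-32 on chromosome III. These close copies could share reads, and how the counting treated this is not given in the sources used here beyond the exclusion of reads aligned to several places.

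The cluster did not separate the genotypes. Its summed level was 58.4, 364 and 85.7 CPM in mec-8 replicates 1, 2 and 3, against 99.7, 278 and 34.8 CPM in wild-type replicates 1, 2 and 3. As a share of gene counts this was 0.0169% ± 0.0169 in mec-8 and 0.0137% ± 0.0126 in wild type (SD, n = 3 each), a spread as wide as the means. The highest library of each genotype was replicate 2. The relatives behaved alike in sum, at 67.7, 232 and 19.3 CPM in mec-8 libraries against 74.9, 197 and 14.2 CPM in wild-type libraries, again with both replicate 2 libraries on top. Most of that sum was nlp-33, which gave 190 CPM in mec-8 replicate 2 and 175 CPM in wild-type replicate 2. Among the relatives, only nlp-33 had both replicate 2 libraries on top. Of the 6 cluster genes, all tested, 4 had a fitted log2 fold change above 0 and 2 under 0, with a median of 0.29. Of the 4 relatives tested, 3 were above 0 and 1 under 0, with a median of 0.18. All of these genes overlapped between the genotypes.

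The gene nlp-27 carried most of the cluster. It stood at 21.97, 304 and 74.6 CPM in mec-8 libraries, against 74.1, 225 and 23.5 CPM in wild-type libraries. That was 83.5% and 87.0% of the cluster counts in mec-8 replicates 2 and 3 and 67.5% to 81.2% in the wild-type libraries. Mec-8 replicate 1 was the exception, with 37.6% from nlp-27 (Wilson 95% interval 35.5% to 39.8%) and 33.9% from nlp-31. The fitted log2 fold change of nlp-27 was 0.27, and without mec-8 replicate 2 it was -1.01.

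The gene nlp-29 itself, the infection and wound reporter, averaged 26.9 CPM per kilobase of exon over the 6 libraries, against 382 for nlp-27. Its CPM stood at 6.71, 25.4 and 1.28 CPM in mec-8 libraries, against 4.88, 16.4 and 2.61 CPM in wild-type libraries. Its order across libraries was the same in both genotypes, with replicate 2 highest and replicate 3 lowest, and its fitted log2 fold change was 0.44. Nlp-31, whose product has been described as antifungal, gave 19.8, 17.4 and 5.86 CPM in mec-8 libraries and 10.1, 18.3 and 5.22 CPM in wild-type libraries. Nlp-30 gave 3.26, 9.99 and 0.0440 CPM in mec-8 libraries, against 0, 14.7 and 0.783 CPM in wild-type libraries. Nlp-30 thus spanned the range from no count to its highest level within wild type alone. Nlp-28 lay at 3.96 to 6.98 CPM in mec-8 libraries and 2.19 to 9.28 CPM in wild-type libraries. Nlp-34, the gene on the opposite strand, did not exceed 1.47 CPM and had no count in mec-8 replicate 3.

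Among the relatives, nlp-33 had the highest level per length, and infection and wounding are known to induce it too. It stood at 43.3, 190 and 17.6 CPM in mec-8 libraries, against 44.0, 175 and 11.9 CPM in wild-type libraries. Replicates of the same number lay closer to each other across the genotypes than to the other replicates of their own genotype. Nlp-24, also described as the precursor of an opioid-like peptide in starved animals, stood at 19.6, 38.6 and 1.19 CPM in mec-8 libraries and at 28.3, 21.4 and 2.09 CPM in wild-type libraries. Nlp-26 did not exceed 2.63 CPM, and 29 of its 390 exon bases are shared with a gene on the other strand. Nlp-25 had the largest positive fold change of all members, 4.15 on the log2 scale with an SE of 2.53 and an unadjusted p of 0.143 (adjusted p = 1.0, edgeR). It rested on 4.11 and 1.92 CPM in mec-8 replicates 1 and 2 and no count in mec-8 replicate 3, against 0.395 CPM in wild-type replicate 2 and no count in the other wild-type libraries. Nlp-32 had 3 counts in mec-8 replicate 2, 1 count in wild-type replicate 3 and none elsewhere, so no fold is given.

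**Figure D3:**
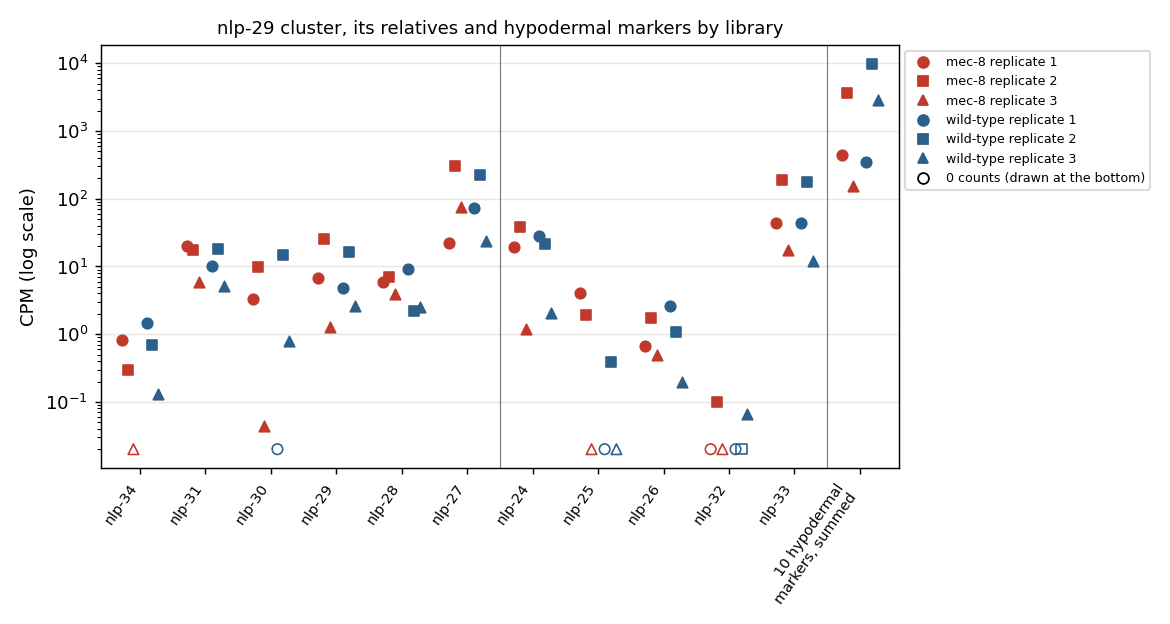
CPM of the 11 genes of the nlp-29 cluster and its relatives, and of 10 hypodermal markers summed, in each library on a log scale, mec-8 libraries (red) left of wild-type libraries (blue), the marker shape giving the replicate and open markers at the bottom standing for 0 counts. The genotypes overlap for each gene, and for nlp-27, nlp-29, nlp-30 and nlp-33 both replicate 2 libraries are the highest.

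Hypodermal markers, the cuticle collagens and other genes of the epidermis, were highest in sum in the same pair of libraries. Their summed level over 10 genes was 439, 3625 and 155 CPM in mec-8 libraries, against 348, 9829 and 2901 CPM in wild-type libraries, with dpy-7 at 0 in mec-8 replicate 3 and in wild-type replicate 1, and wrt-2 and rol-6 at 0 in wild-type replicate 1. Of the 10, 8 were highest in wild-type replicate 2, and elt-3 and clec-1 were highest in wild-type replicate 1. All 10 markers were tested, and all 10 had a fitted log2 fold change under 0, with a median of -1.72 and 0 under an unadjusted p of 0.05. The cluster did not keep a fixed ratio to these markers: its summed CPM over theirs was 0.133, 0.100 and 0.554 in mec-8 libraries, against 0.287, 0.0282 and 0.0120 in wild-type libraries. In wild-type replicate 3 the markers stood at 2901 CPM while the cluster stood at 34.8 CPM. The part of epidermal RNA in the levels of the nlp-29 group was not tested.

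The pathway that induces nlp-29 was measured through 14 genes, from the receptor dcar-1 through the kinases of the p38 cascade to the transcription factors sta-2 and elt-3. Elt-3 is also among the hypodermal markers. All 14 were tested, 0 were called, 10 had a fitted log2 fold change above 0 and 4 under 0, and the median was 0.31. In 3 of the 14 genes, every mec-8 library lay above every wild-type library, an arrangement seen in 5.5% of all genes tested. These were nipi-3, sek-1 and egl-8. The Tribbles-like pseudokinase nipi-3 stood at 67.1, 28.8 and 95.8 CPM in mec-8 libraries against 28.5, 20.1 and 18.7 CPM in wild-type libraries, so that its closest libraries were 28.8 and 28.5 CPM. The MAP kinase kinase sek-1 stood at 23.3, 19.2 and 39.7 CPM in mec-8 libraries against 10.6, 12.3 and 8.67 CPM in wild-type libraries. The phospholipase egl-8 stood at 58.8, 64.3 and 63.3 CPM in mec-8 libraries against 47.5, 48.1 and 36.0 CPM in wild-type libraries. Their unadjusted p-values in edgeR's test were 0.0675, 0.0847 and 0.363, each with an adjusted p of 1.0. These genes also act outside the epidermis, the p38 kinases in the intestine among other places. Of the 7 intestinal markers, 4 (elt-2, ges-1, ifb-2 and vha-6) did not overlap between the genotypes either, again with mec-8 higher. The p38 kinase gene pmk-1, also among the 14, did overlap. It stood at 6.01, 8.63 and 17.2 CPM in mec-8 libraries, against 11.96, 8.57 and 5.15 CPM in wild-type libraries. The part of intestinal RNA in the levels of the pathway genes was not tested.

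The caenacins, encoded by the cnc genes, are another family of epidermal defence peptides. The 11 cnc genes summed to 19.8, 59.4 and 7.75 CPM in mec-8 libraries, against 41.8, 102 and 19.8 CPM in wild-type libraries. Of the 11, 5 passed the filter, 0 were called, and 4 of the 5 had a fitted log2 fold change under 0, with a median of -0.61. Among them, cnc-3 stood at 0.514, 11.97 and 2.33 CPM in mec-8 libraries, against 8.20, 62.8 and 13.6 CPM in wild-type libraries, with a fitted log2 fold change of -2.63 (SE 1.26, unadjusted p = 0.0737, adjusted p = 1.0, edgeR). Within each genotype, its replicate 2 library was again the highest.

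Outside the epidermal group, 45 of the 67 members were tested and 0 were called. Of the 45, 14 had a fitted log2 fold change above 0 and 31 under 0, or 68.9% under 0, with a median of -0.35. The median over all fitted members, -0.19 with all libraries, depended on which library was left out. It was -0.73, -0.77 and -0.20 without mec-8 replicates 1, 2 and 3, and 0.08, -0.30 and -0.54 without wild-type replicates 1, 2 and 3. The fits with a library left out covered 58 to 64 members, against 55 with all libraries. With limma voom and quality weights the median was 0.01.

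One member did not overlap between the genotypes. The gene nlp-21, on the minus strand of chromosome III from 11388624 to 11393262, stood at 23.6, 63.0 and 26.03 CPM in mec-8 replicates 1, 2 and 3, against 87.7, 64.2 and 114 CPM in wild-type replicates 1, 2 and 3. The highest mec-8 library and the lowest wild-type library, both replicate 2, were 63.0 and 64.2 CPM, so the groups all but touched. The means were 37.5 ± 22.1 CPM in mec-8 and 88.7 ± 24.9 CPM in wild type (SD, n = 3 each). The fitted log2 fold change was -1.40 with an SE of 0.676, the smallest error of any member, and edgeR's unadjusted p was 0.0751 (adjusted p = 1.0). This was 1 of 55 members with every mec-8 library under every wild-type library, beside 1.49% of all genes tested. Of the 789 exon bases of nlp-21, 46 are shared with a gene on the other strand.

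The largest fold change of any member was that of nlp-64, on the minus strand of chromosome X from 308762 to 311311. It stood at 0.151, 2.25 and 0 CPM in mec-8 libraries, against 48.5, 6.99 and 1.70 CPM in wild-type libraries. The genotypes overlapped through mec-8 replicate 2 and wild-type replicate 3, and wild-type replicate 1 alone held 81.4% of the CPM summed over the libraries. The fitted log2 fold change was -4.76 with an SE of 2.04, and its unadjusted p of 0.0509 was the lowest of the members (adjusted p = 1.0, edgeR). Without wild-type replicate 1 the fitted value was -2.62.

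Wild-type replicate 1 was also by far the highest library for nlp-50, nlp-99 and nlp-17. Nlp-50, on chromosome II from 6765034 to 6765893, stood at 53.2, 20.8 and 11.6 CPM in mec-8 libraries, against 349, 28.7 and 16.2 CPM in wild-type libraries. Its fitted log2 fold change was -1.98, and 0.47 without wild-type replicate 1. Nlp-99 stood at 45.5, 27.2 and 24.2 CPM in mec-8 libraries, against 312, 21.5 and 48.5 CPM in wild-type libraries, and its fitted value moved to -0.23 without wild-type replicate 1, from -1.83 with it. It is also uncertain because 182 of its 678 exon bases are shared with a gene on the same strand. Nlp-17 stood at 32.4, 41.5 and 5.81 CPM in mec-8 libraries, against 196, 32.1 and 77.1 CPM in wild-type libraries. Nlp-17 was under 0 with each library left out in turn, between -2.57 and -1.29, with a main value of -1.98 (SE 0.981, unadjusted p = 0.0810, adjusted p = 1.0, edgeR). The touch neuron markers were high in 2 libraries, at 11523 CPM in mec-8 replicate 1 and 14706 CPM in wild-type replicate 1. Of the 10, 5 were highest in mec-8 replicate 1 (mec-3, mec-4, mec-10, mec-12 and mec-14) and 5 in wild-type replicate 1. The 5 germline markers summed to 1223, 3413 and 1092 CPM in mec-8 libraries, against 6942, 1135 and 3924 CPM in wild-type libraries. Of these, pgl-1 and rme-2 were highest in wild-type replicate 1, where rme-2 alone gave 4644 of the 6942 CPM. Cpb-3 and pgl-3 were highest in mec-8 replicate 2, and glh-1 was highest in wild-type replicate 3. The part of either marker group in these levels was not tested.

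In the opposite direction, nlp-20 rested on 1 mec-8 library. The gene lies on the minus strand of chromosome IV from 7642054 to 7643071 and stood at 244, 11.7 and 0.396 CPM in mec-8 libraries, against 2.42, 4.73 and 13.4 CPM in wild-type libraries. Mec-8 replicate 1 held 88.2% of the CPM summed over the 6 libraries, the largest such share of any member with 100 counts or more in some library. The fitted log2 fold change of 3.70 (SE 2.02, unadjusted p = 0.108, adjusted p = 1.0, edgeR) became -0.81 when that library was left out. The summed level of the pan-neuronal markers was also highest in mec-8 replicate 1, at 537 CPM against 169 and 174 CPM in the other mec-8 libraries and 89.5 to 144 CPM in wild-type libraries. Of that 537 CPM, unc-104 alone gave 299. Of the 10 markers, 5 were highest in mec-8 replicate 1 and 5 in other libraries. Without unc-104 the sum was 238, 144 and 154 CPM in mec-8 libraries, against 106, 110 and 55.3 CPM in wild-type libraries. The part of these markers in the level of nlp-20 was not tested. Nlp-89 had its highest level in the same library, with 3.47, 0.595 and 0 CPM in mec-8 libraries against 0.173, 0.395 and 0 CPM in wild-type libraries. Nlp-4, on chromosome I, was likewise highest there, at 92.5, 21.01 and 15.7 CPM in mec-8 libraries, against 4.45, 2.12 and 28.1 CPM in wild-type libraries, and its fitted log2 fold change of 1.80 became 0.26 without mec-8 replicate 1.

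The remaining abundant members showed the same breadth. Nlp-49, whose peptides act through the receptor SEB-3 on locomotion and arousal, stood at 2.48, 67.0 and 1.72 CPM in mec-8 libraries, against 31.7, 131 and 24.1 CPM in wild-type libraries. Both replicate 2 libraries were its highest, and its fitted log2 fold change of -1.58 became -4.65 without mec-8 replicate 2 and -0.66 without wild-type replicate 2. Nlp-71 stood at 0.514, 11.8 and 4.36 CPM in mec-8 libraries, against 31.3, 13.3 and 11.7 CPM in wild-type libraries, and overlapped by a narrow margin between mec-8 replicate 2 and wild-type replicate 3. Its fitted value was -1.91 (SE 1.12, unadjusted p = 0.130, adjusted p = 1.0, edgeR). Nlp-15, an orcokinin-like precursor, was the most even of these genes, at 8.43, 9.43 and 10.7 CPM in mec-8 libraries and 4.58, 14.99 and 18.3 CPM in wild-type libraries. Nlp-55 was not abundant and was named for its concentration in 1 library, wild-type replicate 1. It gave at most 1.32 CPM in mec-8 libraries and 5.87, 1.08 and 0.326 CPM in wild-type libraries.

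**Figure D4:**
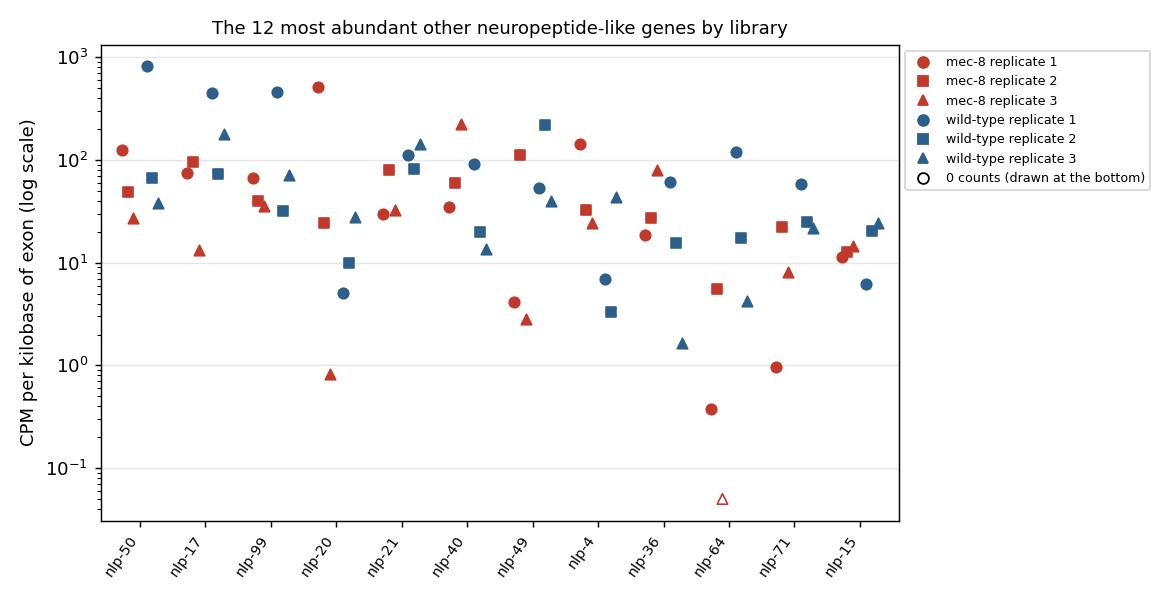
CPM per kilobase of exon, on a log scale, of the 12 most abundant members outside the nlp-29 group, mec-8 libraries (red) left of wild-type libraries (blue), the marker shape giving the replicate and the open marker standing for 0 counts. Single libraries stand far above the rest for nlp-20 (mec-8 replicate 1) and for nlp-50, nlp-99 and nlp-64 (wild-type replicate 1), whereas nlp-21 and nlp-15 span narrower ranges.

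Concentration in 1 library was common among all genes of the series. Among the 42 members with 100 counts or more in some library, the highest library held a median of 42.9% of the summed CPM, against 39.2% for the 13491 genes of the series that met the same minimum. In 15 of the 42 (35.7%) it held more than 50%, against 30.5% of all such genes. The highest library was wild-type replicate 1 for 38.1% of the members, against 21.4% of all such genes, and mec-8 replicate 2 for 26.2%, against 18.8%. Both replicate 2 libraries were the highest pair for 9 of the 42 members (21.4%), against 17.4% of all such genes. These 9 were nlp-13, nlp-16, nlp-18, nlp-27, nlp-29, nlp-30, nlp-33, nlp-49 and nlp-67. The plainest case outside the epidermal group was nlp-16, at 0.937, 44.8 and 3.88 CPM in mec-8 libraries and 1.42, 41.9 and 11.4 CPM in wild-type libraries. Nlp-67 was close to an on and off pattern, with 8.63 CPM in mec-8 replicate 2 and 5.88 CPM in wild-type replicate 2, and at most 0.196 CPM in any other library.

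The member best known outside the nervous system is nlp-40, which the intestine releases to time the expulsion step of defecation through the receptor AEX-2 on GABAergic neurons. It stood at 25.1, 42.6 and 161 CPM in mec-8 libraries, against 64.9, 14.3 and 9.65 CPM in wild-type libraries. The genotypes overlapped, and the fitted log2 fold change was 1.54 (SE 1.06, unadjusted p = 0.188, adjusted p = 1.0, edgeR), which became 0.16 without mec-8 replicate 3. The 7 intestinal markers summed to 2255, 2819 and 18951 CPM in mec-8 libraries, against 3426, 759 and 198 CPM in wild-type libraries. Of the 7, 5 were highest in mec-8 replicate 3, as was nlp-40, and the aspartic protease gene asp-1 alone gave 15005 of the 18951 CPM there. Without asp-1 the sum was 904, 1080 and 3946 CPM in mec-8 libraries, against 804, 383 and 98.3 CPM in wild-type libraries, so that the genotypes no longer overlapped whereas those of nlp-40 did. All 7 markers had a fitted log2 fold change above 0, with a median of 3.05. In 3 of the 7 the unadjusted p was under 0.05, namely ifb-2 (0.0118), elt-2 (0.0211) and ges-1 (0.0250), each with an adjusted p of 1.0 in edgeR's test, beside 2.87% of all genes in that direction. The part of intestinal RNA in the level of nlp-40 was not tested.

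The convertase AEX-5, which the same intestinal pathway needs, was highest in the same library. Its gene stood at 80.1, 1273 and 4471 CPM in mec-8 libraries, against 159, 557 and 177 CPM in wild-type libraries, with a fitted log2 fold change of 2.88 (SE 1.44, unadjusted p = 0.0845, adjusted p = 1.0, edgeR). The receptor gene aex-2 was near the floor, at 0.121, 0.562 and 0 CPM in mec-8 libraries and 2.25, 0.646 and 0.261 CPM in wild-type libraries. Nlp-36 was also highest in mec-8 replicate 3, at 28.01 CPM, against 6.59 and 9.56 CPM in the other mec-8 libraries and 21.3, 5.52 and 0.587 CPM in wild-type libraries.

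**Figure D5:**
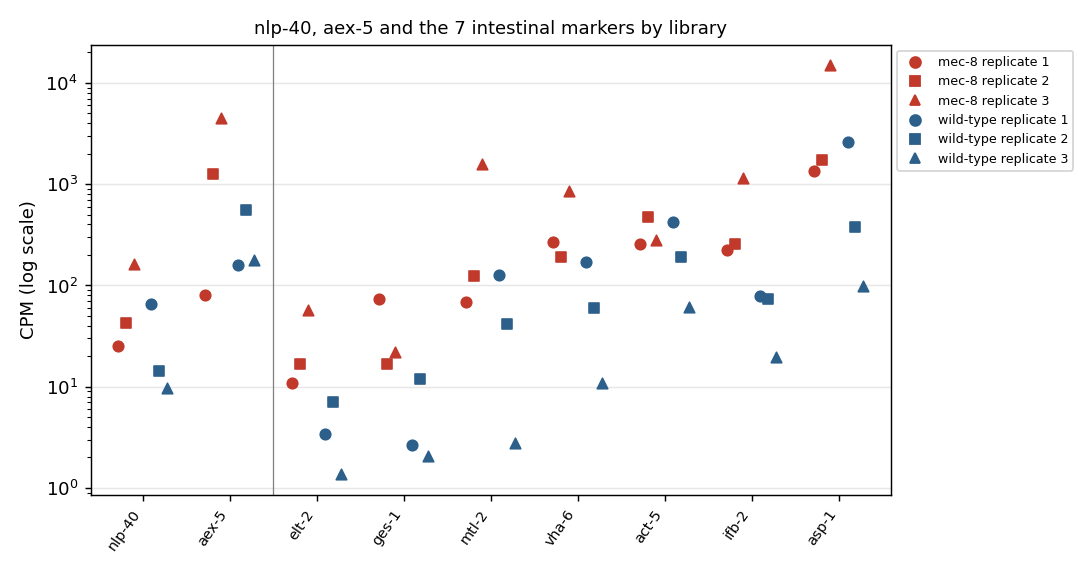
CPM on a log scale of nlp-40, aex-5 and the 7 intestinal markers in each library, mec-8 libraries (red) left of wild-type libraries (blue), the marker shape giving the replicate. Mec-8 replicate 3 is the highest library for nlp-40 (161 CPM), aex-5 (4471 CPM), elt-2 (57.8 CPM) and ifb-2, but not for ges-1 and act-5.

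Peptides with known roles in behaviour were named for those roles, with their values already seen. Nlp-1, which the olfactory neuron AWC releases onto the receptor NPR-11, stood at 3.05, 5.39 and 5.77 CPM in mec-8 libraries and 5.79, 3.84 and 4.89 CPM in wild-type libraries, with a fitted log2 fold change of -0.05. The receptor gene npr-11 was at 0 in 4 of the 6 libraries. Nlp-12, a cholecystokinin-like peptide of the stretch-sensing neuron DVA, stood at 0.484, 8.90 and 6.43 CPM in mec-8 libraries and 5.92, 5.24 and 1.30 CPM in wild-type libraries. Of its receptors, ckr-2 stood at 1.66, 0.265 and 0 CPM in mec-8 libraries and 14.5, 2.30 and 0.848 CPM in wild-type libraries. The other, ckr-1, stood at 2.72, 2.25 and 0 CPM in mec-8 libraries and 1.99, 0.0359 and 0.913 CPM in wild-type libraries. Their fitted log2 fold changes went opposite ways, -2.88 (SE 1.98) for ckr-2 and 0.72 (SE 2.03) for ckr-1. Nlp-8, a sleep peptide of the neuron ALA, and nlp-14, an orcokinin-like peptide that also promotes quiescence, overlapped between the genotypes, with fitted values of -0.32 and -1.11. Nlp-22, a sleep peptide of the interneuron RIA, did not pass the filter, with 0, 3 and 0 counts in mec-8 libraries and 28, 3 and 1 counts in wild-type libraries. Nlp-3, an egg-laying peptide of the HSN neurons, stood at 3.02, 1.09 and 0 CPM in mec-8 libraries and 0.777, 1.08 and 0.130 CPM in wild-type libraries. Nlp-47, a precursor of a gonadotropin-releasing-hormone-like peptide, stood at 0.997, 0.562 and 0.0881 CPM in mec-8 libraries, against 5.31, 3.62 and 0.0652 CPM in wild-type libraries, and its fitted log2 fold change of -2.20 had an SE of 1.71.

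Receptors listed for peptides of the nlp class gave few counts. The list, which includes nmur-1 and trhr-1, was not limited to receptors of the members counted here. Summed over 9 receptor genes, the level was 16.3, 12.2 and 0.0440 CPM in mec-8 libraries, against 28.02, 16.3 and 9.13 CPM in wild-type libraries, and in mec-8 replicate 3 the whole sum was 1 count. Of the 9 genes, 6 were tested and 0 were called, 2 with a fitted log2 fold change above 0 and 4 under 0. The gene seb-3, the receptor of the nlp-49 peptides, stood at 2.60, 1.75 and 0 CPM in mec-8 libraries and 5.87, 2.40 and 4.11 CPM in wild-type libraries. Ciliated sensory neuron markers, which mark many of the cells that express nlp genes, summed to 29.8, 20.8 and 10.8 CPM in mec-8 libraries and 5.05, 28.6 and 18.98 CPM in wild-type libraries. In mec-8 replicate 3 and in wild-type replicate 1, 8 of these 10 markers were at 0. There, osm-1 alone gave 10.79 of 10.83 CPM and 4.92 of 5.05 CPM.

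The enzymes that mature neuropeptides overlapped between the genotypes. Of 11 such genes, all tested, 0 were called, 4 had a fitted log2 fold change above 0 and 7 under 0, and the median was -0.14. The proprotein convertase egl-3 stood at 101, 39.99 and 7.22 CPM in mec-8 libraries and 89.0, 34.9 and 46.1 CPM in wild-type libraries. Its chaperone sbt-1 stood at 437, 118 and 104.2 CPM in mec-8 libraries and 430, 120 and 185 CPM in wild-type libraries, and its fitted log2 fold change was 0.00. In replicates 1 and 2, the genotypes were thus within a few CPM of each other for sbt-1. The carboxypeptidase egl-21 stood at 349, 110 and 78.4 CPM in mec-8 libraries and 484, 79.0 and 261 CPM in wild-type libraries. The amidating enzymes pgal-1, pghm-1 and pamn-1 had fitted log2 fold changes of -0.44, -0.90 and 0.29. All 3 were lowest in mec-8 replicate 3, where pghm-1 stood at 3.92 CPM and pamn-1 at 0.0881 CPM.

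Genes of dense core vesicle release leaned the other way. Of 10 genes, all tested, 0 were called after adjustment, 9 had a fitted log2 fold change above 0 and 1 under 0, and the median was 0.69. At an unadjusted p under 0.05 there was 1, ric-19, a vesicle maturation gene, at 47.2, 32.7 and 86.1 CPM in mec-8 libraries against 10.97, 13.7 and 16.8 CPM in wild-type libraries. Its fitted log2 fold change was 2.06 (SE 0.783, unadjusted p = 0.0325, adjusted p = 1.0, edgeR), and every mec-8 library lay above every wild-type library, as was also so for tbc-8, another maturation gene. These were 1 and 2 of the 10 genes, beside 2.87% of all genes at an unadjusted p under 0.05 with mec-8 higher and 5.5% with every mec-8 library above every wild-type library. The release factor unc-31 stood at 38.9, 16.5 and 2.33 CPM in mec-8 libraries, against 0.561, 1.97 and 8.41 CPM in wild-type libraries. The vesicle protein gene ida-1 stood at 465, 75.1 and 22.6 CPM in mec-8 libraries, against 85.1, 42.3 and 122 CPM in wild-type libraries. Pan-neuronal markers leaned the same way, with 9 of 10 above 0 and a median of 1.14. Both ric-19 and rab-3 are counted in each of these lists, so the lists are not independent. The part of neuronal RNA as a whole in the levels of the release genes was not tested.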

How the data were processed

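The 6 RNA-seq libraries came from GFP-sorted touch neurons of the L4 stage. The authors mapped the reads with STAR and counted them on genes with HTSeq, and deposited whole counts per gene without normalization. The counting settings, strand included, are not given in the sources used here, so genes that share exon bases (16 of the 78 members) are uncertain. Lines that name no gene were left out. Of the uniquely mapped reads, they held 14.6% in wild-type replicate 1 and 3.00% to 4.17% elsewhere.

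Coordinates, exon lengths and symbols were taken from Ensembl release 115 and RefSeq on WBcel235, and 46364 of the 46726 identifiers were in the Ensembl annotation. CPM were computed over counts on genes. Tests of mec-8 against wild type used edgeR 4.0.16 in R 4.3.3, with a quasi-likelihood test on genotype alone with TMM normalization, filterByExpr and Benjamini-Hochberg adjustment over 14614 genes, at a threshold of 0.05. Standard errors were back-calculated by dividing the size of the log2 fold change by the root of F. Alternatives were DESeq2 1.42.0, limma 3.58.1 voom with quality weights, DESeq2 size factors, upper-quartile scaling, scaling by library size, the replicate number as a block, no filter or a minimum of 10 counts in each library, and leaving out single libraries. Summaries used python 3.11.15 and pandas 2.3.3.

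Named members were the nlp-29 group, the 12 other members highest in CPM per kilobase, any with an unadjusted p under 0.05 or with genotypes that did not overlap, and the 5 with 100 counts or more that were most concentrated in 1 library. Further peptides were named for their known roles. The members and all gene lists were chosen with earlier results of these data known. No sequence was used here, and splice junctions were not analysed here.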

Additional observations from a re-analysis of the deposited data

How the results depend on the processing

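The count of 0 members with an adjusted p under 0.05 was the same in all 14 alternatives, and the lowest adjusted p of any named member in any of them was 0.292, for nlp-64 with DESeq2. Over all genes, DESeq2 called 44 genes after adjustment, against 0 with edgeR. The members under an unadjusted p of 0.05 numbered 0 with edgeR, 5 with DESeq2, 2 with DESeq2 size factors, 1 with upper-quartile scaling, 2 without a filter, 2 with the replicate block (nlp-49 at -2.82 and nlp-64 at -5.95 on the log2 scale) and 0 to 4 with a library left out. A filter of 10 counts in every library left 28 members fitted, since fewer genes pass it. Detection in all 3 libraries of a genotype, in place of 2, left 32 members in mec-8 and 34 in wild type. The median fold change of all genes shifted from 0.01 to -0.11 with upper-quartile scaling and to -0.18 with DESeq2, and that of the members from -0.19 to -0.39 and -0.59, while limma voom gave 0.01 for the members. These medians do not cover the same members. DESeq2 fitted 77, whereas the main, upper-quartile and limma voom fits covered 55. The edgeR fit without a filter, also over 77 members, gave -0.38. Of the 24 named members fitted, 7 were fitted in all 14 alternatives and kept their sign in each (nlp-4, nlp-17, nlp-21, nlp-40, nlp-49, nlp-71 and nlp-99). Another 4 (nlp-25, nlp-55, nlp-64 and nlp-89) kept it wherever they were fitted, but none of them passed the filter of 10 counts, and nlp-25 and nlp-89 had no fit without mec-8 replicate 1 or mec-8 replicate 2. Some log2 fold changes turned under another setting: nlp-30 was 0.34 and nlp-26 0.77 with limma voom, and nlp-33 was -0.10 with DESeq2 and with its size factors, -0.055 with upper-quartile scaling and -0.021 with the filter of 10 counts.

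Replicate numbers did not pair the libraries throughout. The deviations of same-numbered libraries correlated at 0.0574, 0.471 and -0.167 for replicates 1, 2 and 3. Of the 6 libraries, 2 correlated best with their own number. The replicate 2 libraries did go together in part. They had the highest TMM factors, 1.31 in mec-8 and 1.21 in wild type. They were also the highest pair for 17.4% of the 13491 genes compared above. What the replicate 2 libraries share was not tested. With the replicate block, 0 members were called, nlp-24 was -0.12 and nlp-26 was 0.036.

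With each library left out in turn, 13 named members changed sign. The ranges of their log2 fold changes were -0.88 to 0.13 for nlp-15, -0.81 to 5.08 for nlp-20, -0.37 to 0.84 for nlp-24, -0.95 to 0.62 for nlp-26, -1.01 to 1.24 for nlp-27, -0.066 to 1.14 for nlp-28, -0.68 to 1.31 for nlp-29, -1.28 to 2.96 for nlp-30, -0.29 to 0.87 for nlp-31, -1.04 to 1.40 for nlp-33, -2.75 to 0.12 for nlp-34, -0.12 to 2.53 for nlp-36 and -3.27 to 0.47 for nlp-50. The causes were not tested. Depth as a limit was not tested beyond the filters on low counts.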
